A study of Drosophila melanogaster with 24 samples.

Results

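The yellow genes of Drosophila melanogaster are a family named after y, the gene whose loss turns the dark adult cuticle yellow. Of 10 yellow family genes considered, 9 had a probe set that named that gene alone, which is 9 of the 18769 probe sets on the array. The tenth, yellow-c, had no probe set of its own, and no value is given for it. Transcript abundance was measured on 24 Affymetrix arrays, each hybridised with RNA of whole virgin flies of 1 sex, 3 to 7 days old, after a short time without food. The flies came from 6 lines founded from a single heterogeneous base population: H1 and H2 were selected for high male aggression, L1 and L2 for low male aggression, and C1 and C2 were kept without selection. Selection was on the behaviour of males, and 2 lines stood for each group, with 2 arrays for each line and sex. The lines numbered 1 and those numbered 2 formed separate replicates of the selection experiment.

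Yellow proteins are secreted and related to the major royal jelly proteins of the honey bee. Y is needed for black melanin, which is laid down in the cuticle before the adult emerges, and also for normal male courtship. The products of yellow-f and yellow-f2 convert dopachrome, an intermediate of melanin synthesis. In contrast, yellow-g and yellow-g2 act in the ovarian follicle cells, where their products help to make a rigid eggshell. Genes of the family thus serve the cuticle, the eggshell and tissues in which their role is less well known.

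All values are Signal, the linear probe set intensity that the authors computed with MAS5. Differences are on the scale of log2(Signal + 16), with standard errors (SE) from a limma fit of 12 means, 1 per line within each sex. Adjusted p-values were corrected over all probe sets tested. All 9 members passed the filter on low Signal, and yellow-f did so by the narrowest margin: its 12th-highest Signal was 64.7, against a lowest kept value of 56.6. Signals of different probe sets are not compared, since probes differ in response. The median Signal of an array was 124.8 to 143.4 in males and 71.4 to 118.9 in females. Replicate arrays of a line and sex correlated at r = 0.982 to 0.990 in males and 0.972 to 0.988 in females, over probe sets. The sums of 3 yolk protein genes were 113.1 to 192.2 in males and 48473 to 87698 in females, as the labels of sex require. One female library stood apart: in C1 female replicate 1, accessory gland and testis markers summed to 5.07% and 3.10% of the male mean, against at most 0.371% and 0.567% in the other females. Without that array the same number of members, 5, differed by sex and 2 differed by line, against 76.2% and 5.76% of all genes. In RNA of whole flies, fewer cells of a type and less RNA per cell cannot be told apart. For each line and sex, 2 samples of flies were collected and RNA was extracted from each. The sources do not say whether these samples came from separate fly cultures. P-values over arrays therefore measure the spread between these samples within a line and sex, which may be in part technical.

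Among the cuticle genes, y varied most from line to line. In H males its Signal was 78.6 and 189.1 in H1, and 240.2 and 199.2 in H2. In L males it was 267.3 and 339.6 in L1, and 453.8 and 385.8 in L2, and in C males it was 161.9 and 184.2 in C1, and 512.0 and 535.4 in C2. All 4 H male arrays lay below all 4 L male arrays, whereas C males spanned both. In H females the Signal of y was 102.7 and 95.7 in H1, and 244.8 and 264.7 in H2. In L females it was 173.6 and 120.7 in L1, and 260.2 and 452.5 in L2, and in C females it was 189.4 and 216.1 in C1, and 359.9 and 732.6 in C2. Here the 3 groups overlapped, and in every group and in both sexes the mean of the line numbered 2 was above that of the line numbered 1.

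The 6 lines differed in y with an adjusted p of 0.0001868 in limma, and the order of the line means over both sexes was H1, C1, L1, H2, L2 and C2, low to high. C2 exceeded H1 by 2.08 (SE 0.243). Of the neighbours in this order, only C1 and H1 (0.68) and L2 and H2 (0.65) were more than 2 SE apart. Within the groups, H2 exceeded H1 by 0.99, L2 exceeded L1 by 0.81 and C2 exceeded C1 by 1.40 (SE 0.243 each), and the last was a 2.64-fold difference between unselected lines. The X-linked y did not differ detectably by sex, with males minus females at 0.19 (SE 0.14, adjusted p = 0.2152).

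Selection groups were called different where the adjusted p was under 0.05 and both lines of a group lay on the same side of both lines of the other. Over both sexes, y was lower in H lines than in L lines by 1.67-fold (log2 difference -0.74, SE 0.172, adjusted p = 0.01148) and lower than in C lines by 1.84-fold (-0.88, SE 0.172, adjusted p = 0.003713). Neither met the rule on the lines, because H2 lay above L1 and above C1. L minus C was -0.14 (adjusted p = 0.7191). When limma was run on 6 line means, so that lines were the replicates, the adjusted p was 0.9935 for H minus L and 0.9475 for H minus C.

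Both of these set lines against each other across replicate numbers. Within the lines numbered 1, y was lower in H than in L by a log2 difference of -0.84 and lower than in C by -0.68, and within the lines numbered 2 these differences were -0.65 and -1.09. H was thus below L and below C within each number, and with one sign within both numbers in place of the rule on lines, a rule added after seeing the data, y was called in both contrasts. By that rule 8.82% of genes were called in H minus L, 9.78% in H minus C and 6.66% in L minus C. With the line number as a block on the line means, also added after seeing the data, the adjusted p of y was 0.7056 for H minus L and 0.6898 for H minus C, and 0% of genes passed in any of the 3 contrasts in limma. In that fit 5.68%, 5.65% and 5.28% of genes had an unadjusted p under 0.05 in H minus L, H minus C and L minus C, and y was among them in the first and the second. The sources state that H and L lines were started from each of the 2 replicates, and do not state it of the founding of the C lines. They do plot the C lines, like the others, as replicate 1 and replicate 2.

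In males alone, H minus L was -1.04 (SE 0.243, adjusted p = 0.02249) with both H lines below both L lines, a 2.05-fold lower level in H males, and y was the 1 member called in that comparison. The background was 3.63% of 9753 genes called by the same rule, and 7.1% of genes had H and L male arrays that did not overlap. The male difference lost its call without any 1 of 5 of the 8 arrays, the weakest being -0.76 (adjusted p = 0.1045) without H1 male replicate 1. It also lost it with arrays scaled to a common median (-0.94, adjusted p = 0.05079), in an ordinary model on Signal (adjusted p = 0.1399), and without line H1 (-0.66, adjusted p = 0.2075) or line L2 (-0.81, adjusted p = 0.1304). In females H minus L was -0.45 (adjusted p = 0.3200), and males minus females of this contrast was -0.59 (SE 0.343, adjusted p = 0.6061).

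Of the dopachrome-converting pair, yellow-f2 varied the more among lines. Its Signal in males was 262.9 and 305.4 in H1, 535.4 and 615.9 in H2, 331.1 and 351.9 in L1, and 510.8 and 603.5 in L2, against 528.6 and 417.2 in C1 and 299.1 and 283.7 in C2. In females it was 192.8 and 197.2 in H1, 359.2 and 497.2 in H2, 268.9 and 247.3 in L1, and 318.5 and 361.6 in L2, against 277.6 and 319.3 in C1 and 275.2 and 267.7 in C2. In each sex the lowest Signal was in H1 and the highest in H2. The lines differed with an adjusted p of 3.953e-05, in the order H1, C2, L1, C1, L2 and H2, low to high. H2 exceeded H1 by 1.02 (SE 0.109), or 2.02-fold, which was the whole range of the 6 lines. L2 exceeded L1 by 0.53, and C2 lay below C1 (C2 minus C1 -0.39). Only C2 over H1 (0.24) and C1 over L1 (0.32) were neighbours more than 2 SE apart. The group means were close: H minus L was -0.07 (SE 0.0771, adjusted p = 0.6535), H minus C 0.07 (adjusted p = 0.6284) and L minus C 0.14 (adjusted p = 0.3312).

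The yellow-f gene lies next to yellow-f2 on chromosome arm 3R (assembly Release 6 plus ISO1 MT, as annotated by RefSeq). Its Signal was low, with a lowest, median and highest value of 38.6, 63.9 and 91.6 in males and 30.7, 66.0 and 121.1 in females. The sexes overlapped, and yellow-f passed no test of sex (-0.10, adjusted p = 0.3569) or line (adjusted p = 0.1085). Over 24 arrays that share lines and scaling, yellow-f and yellow-f2 correlated at r = -0.33, and at -0.30 once the mean of each sex was subtracted. The gene whose level was most like that of yellow-f2 was CG16772 (r = 0.916 over 24 arrays, 0.898 with sex means subtracted), out of 9753 genes. For y it was Pepck2 (r = 0.783) over 24 arrays and CG15044 (r = 0.824) with sex means subtracted.

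**Figure D1:**
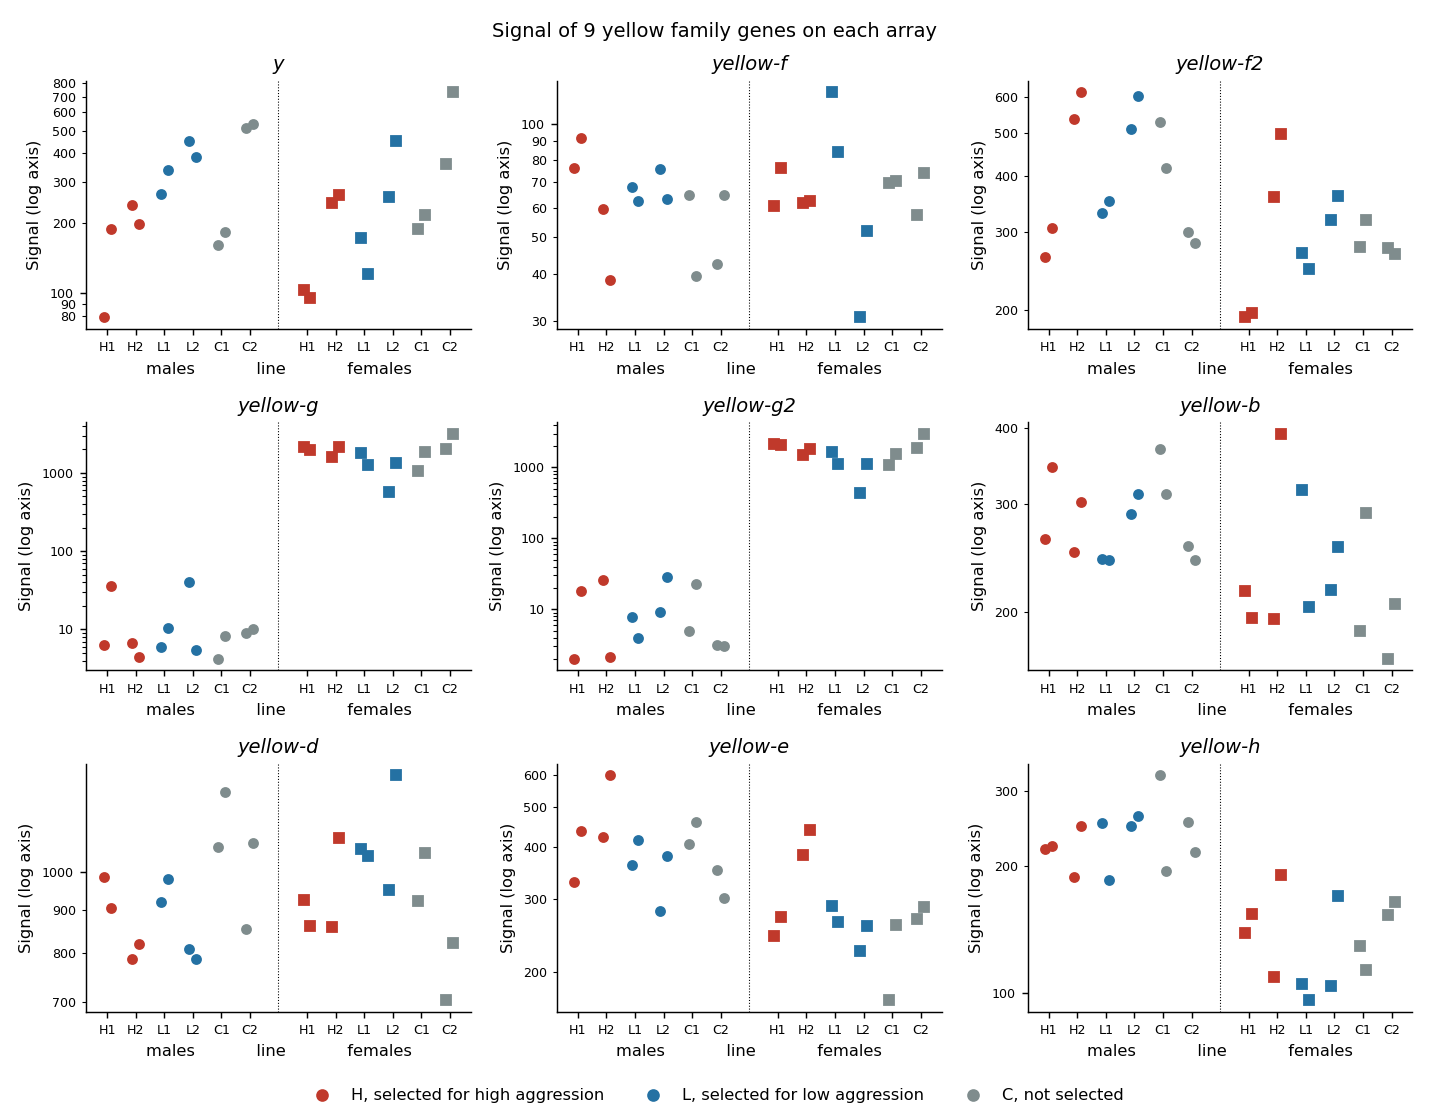
Signal of the 9 yellow family genes (log axis, a scale for each gene) on each of 24 arrays, by line, with males as circles on the left and females as squares on the right; each point is 1 array and colours give the selection group. The panels of y and yellow-f2 show lines of the same group apart, and yellow-g and yellow-g2 show males at 40.3 or less and females at 431.6 or more.

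The eggshell pair separated the sexes completely. Male Signals of yellow-g had a lowest, median and highest value of 4.2, 7.5 and 40.3, against 570.4, 1828 and 3170.4 in females. For yellow-g2 they were 2, 6.4 and 28.9 in males, against 431.6, 1584 and 2980.7 in females. In males, 10 of 12 arrays were below the first quartile of their own array for each of these genes, so male values were near the floor of the measurement. Such a lack of overlap was common: 53% of genes had 12 male and 12 female arrays that did not overlap. The pair passed the filter through females alone, as its 12th-highest Signals, 570.4 and 431.6, were its lowest female values. Its sex difference is therefore a description and not a test. Males minus females was -5.95 for yellow-g (SE 0.193, adjusted p = 5.219e-14) and -5.86 for yellow-g2 (SE 0.195, adjusted p = 7.114e-14). These correspond to 61.7-fold and 58.2-fold on the scale with 16 added. With male values near the floor, these folds depend on the 16 added and are not exact sizes.

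The pair lies side by side on chromosome arm 3L, and its levels moved together in females. The Signal of yellow-g in females was 2175.5 and 1938.2 in H1, 1615.3 and 2141.8 in H2, 1785.8 and 1281.2 in L1, and 570.4 and 1331.2 in L2, against 1059.3 and 1870.3 in C1 and 2049.1 and 3170.4 in C2. That of yellow-g2 was 2144.9 and 2041.9 in H1, 1471.1 and 1844.1 in H2, 1631.5 and 1120.1 in L1, and 431.6 and 1100.3 in L2, against 1066.0 and 1537.1 in C1 and 1892.4 and 2980.7 in C2. The lowest female array of both was L2 replicate 1 and the highest C2 replicate 2. Their correlation was r = 0.986 over 12 female arrays and 0.141 over 12 male arrays. Such values are descriptions, since the arrays share lines and scaling.

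In females, H minus L was 0.76 for yellow-g (SE 0.334, adjusted p = 0.2148) and 0.93 for yellow-g2 (SE 0.338, adjusted p = 0.1294), and L minus C was -0.71 (adjusted p = 0.3060) and -0.84 (adjusted p = 0.2180). None passed the threshold. Both contrasts leaned on 1 array: without L2 female replicate 1, H minus L in females was 0.46 (adjusted p = 0.5274) for yellow-g and 0.60 (adjusted p = 0.3796) for yellow-g2. With arrays scaled to a common median, H minus L in females passed the rule for both, at 1.01 (adjusted p = 0.04062) and 1.18 (adjusted p = 0.02329). That of yellow-g2 also passed with a pseudocount of 64 (0.89, adjusted p = 0.01953) and in the ordinary model on Signal (805 units of Signal, adjusted p = 0.04016). In the main fit 4.7% of all genes were called in this contrast, and the shares under these settings are not given here.

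Other genes of the eggshell allow the pair to be placed on each female array. Of 23 eggshell genes listed, 17 were tested, all 17 were higher in females, and their median of males minus females was -7.05. Over all genes 45.9% were higher in females. The filter asks for a 12th-highest Signal, which the 12 female arrays alone can supply, so this count is a description and not a test. None of the 17 passed the threshold for line in limma (lowest adjusted p 0.05804) or was called in a selection contrast, and 2, 0 and 3 had an unadjusted p under 0.05 in H minus L, H minus C and L minus C. On L2 female replicate 1, yellow-g and yellow-g2 deviated by -1.48 and -1.73 from their own female means, whereas the median deviation of the 17 genes was -0.08, with a range of -1.61 to 0.33. The gene at -1.61 was Cp7Fc, and Cp36 (-0.86), Cp18 (-0.85) and Cp15 (-0.65), which encode chorion proteins of the outer eggshell, came next. Vm26Aa (0.14), Vm32E (0.05) and Vm34Ca (0.25), which encode proteins of the inner vitelline membrane, were near or above their means there. On C2 female replicate 2 the pair was 0.96 and 1.02 above its means, with an eggshell median of 0.10. On L1 female replicate 1 the pair was near its means, at 0.14 and 0.15, and the eggshell median was at -0.41.

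**Figure D2:**
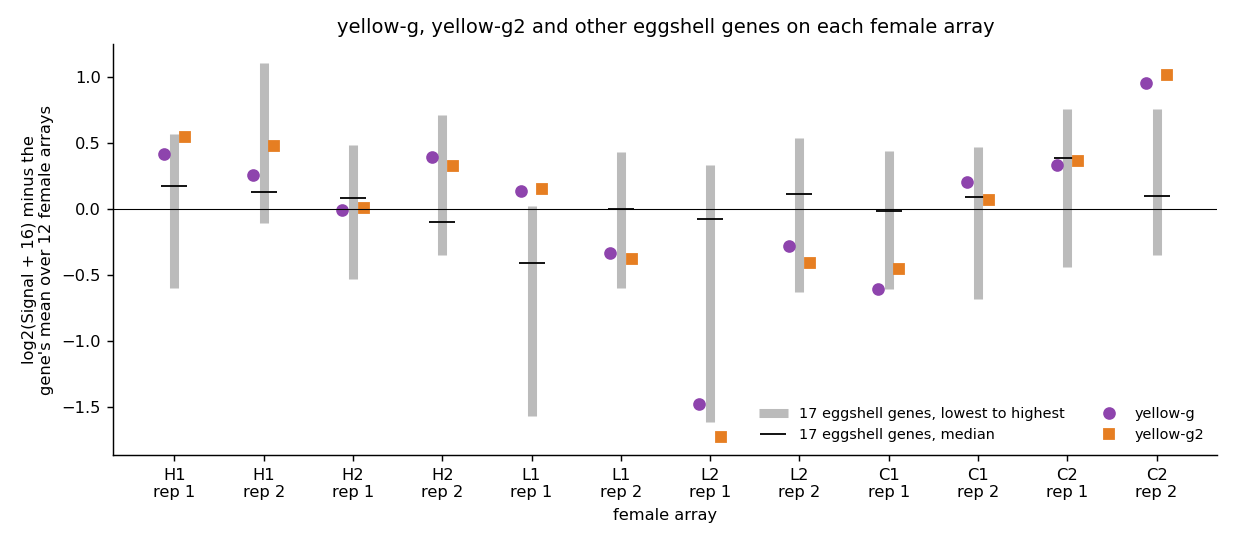
Level of yellow-g (circles), yellow-g2 (squares) and 17 other eggshell genes (grey bar, lowest to highest; black tick, median) on each of 12 female arrays, as log2(Signal + 16) minus the mean of the gene over the female arrays. The pair is at -1.48 and -1.73 on L2 replicate 1 and at 0.96 and 1.02 on C2 replicate 2, while the eggshell medians there are -0.08 and 0.10.

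By the measure of likeness, CG11381 (r = 0.990), Cp36 (0.990) and CG13299 (0.989) were closest to yellow-g over 24 arrays, and CG13299 (0.993), CG11381 (0.992) and CG4009 (0.991) to yellow-g2. Both sexes enter these values, and they lie far apart in all of these genes. Over the 12 female arrays alone, a set added after seeing the data, CG13114 (r = 0.961 with yellow-g and 0.989 with yellow-g2) and CG4009 (0.958 and 0.939) were the closest genes besides the pair itself.

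Among the other members, yellow-h on chromosome 4 differed most between the sexes. Its lowest, median and highest Signals were 185.1, 235.6 and 327.9 in males and 96.3, 134.4 and 190.7 in females, so the ranges overlapped only between 185.1 and 190.7. Males minus females was 0.74 (SE 0.107, adjusted p = 8.079e-06), or 1.67-fold, and it was positive in all 6 lines, between 0.52 and 1.00. The lines did not differ detectably (adjusted p = 0.6464). For yellow-e, whose counterpart in the silkworm affects larval pigmentation, the values were 281.4, 394.2 and 598.1 in males and 171, 266.2 and 441.1 in females. Males minus females was 0.49 (SE 0.0843, adjusted p = 5.679e-05) and was positive in all 6 lines, between 0.22 and 0.98. The largest of these belonged to C1, which holds the female array with male markers, where yellow-e was at 171. Without that array the difference over all lines was 0.44 (adjusted p = 9.515e-05).

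Line H2 had the highest yellow-e in both sexes, at 423.6 and 598.1 in males and 382.9 and 441.1 in females, and it exceeded the next line, L1, by 0.45 (SE 0.146). Over the 6 lines the adjusted p was 0.02558, which missed the threshold of 0.001. H minus L was 0.30 (adjusted p = 0.07982) and H minus C 0.31 (adjusted p = 0.07006), and H1 lay below L1 in the order of lines. H minus C was called with a replicate block (adjusted p = 0.02265), without H2 male replicate 1 (0.37, adjusted p = 0.03650) and without C1 female replicate 2 (0.38, adjusted p = 0.02245). In these fits 10.4%, 7.65% and 8.99% of all genes were called in H minus C. Of the remaining genes, yellow-b on 2L had Signals of 242.8, 276.3 and 368.6 in males and 167.5, 211.3 and 391 in females (lowest, median and highest). Its difference of 0.28 between males and females (adjusted p = 0.02635) missed the threshold. Those of yellow-d on 2R were 787.3, 913.6 and 1242.5 in males and 703.7, 937.6 and 1300.8 in females, with a difference of -0.04 (adjusted p = 0.5576). For yellow-d, L minus C was -0.27 in males and 0.32 in females, and the difference of -0.59 between them (SE 0.16) did not pass in limma (adjusted p = 0.2616).

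Over the family, 3 of 9 members (yellow-e, yellow-f2 and yellow-h) were higher in males and 2 (yellow-g and yellow-g2) higher in females at an adjusted p under 0.001, where 31.7% of all genes were higher in males and 45.9% higher in females. The calls of yellow-g and yellow-g2 are descriptions and not tests, since the pair passed the filter through females alone. The median of the 9 differences was 0.19, against -0.18 over 9753 genes. The male-higher direction depended on the scaling: with arrays scaled to a common median, which moved single genes by a median of -0.66, yellow-f2 was at -0.20 (adjusted p = 0.01582), yellow-e at -0.17 (adjusted p = 0.1058) and yellow-h at 0.10 (adjusted p = 0.3509). Under that scaling no member was called higher in males and 4 were called higher in females, namely the eggshell pair, yellow-f (-0.65) and yellow-d (-0.72), where the shares of all genes were 19% higher in males and 66.1% higher in females. Relative to the median gene, the differences were nearly the same under both scalings, at 0.64 and 0.63 for yellow-f2, 0.67 and 0.67 for yellow-e, and 0.92 and 0.94 for yellow-h. The eggshell pair stayed at -6.44 and -6.35.

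Tested line by line at an adjusted p under 0.05, yellow-g and yellow-g2 differed by sex in all 6 lines, yellow-f2 in 5, yellow-h in 3 and yellow-e in 2. For yellow-g and yellow-g2 this too is a description and not a test, given how they passed the filter. In 1 line each, y was higher in males in L1 (0.98, adjusted p = 0.01950), yellow-f was higher in males in L2 (0.60, adjusted p = 0.03471) and yellow-d was lower in males in L2 (-0.47, adjusted p = 0.01705), and yellow-b passed in 0 lines. For yellow-f2 the exception was C2, at 0.10 (adjusted p = 0.5939), while the others were between 0.38 and 0.68. The number of members called was 4 in H1, 3 in H2, 5 in L1, 6 in L2, 5 in C1 and 2 in C2. The shares of all genes called were 73.3% in H1, 71.2% in H2, 70.4% in L1, 70.1% in L2, 70.4% in C1 and 70.3% in C2. No member passed the test of line by sex (background 0.0205%), although 3 had an unadjusted p under 0.05 in limma, and 0 passed in the ordinary model on Signal.

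**Figure D3:**
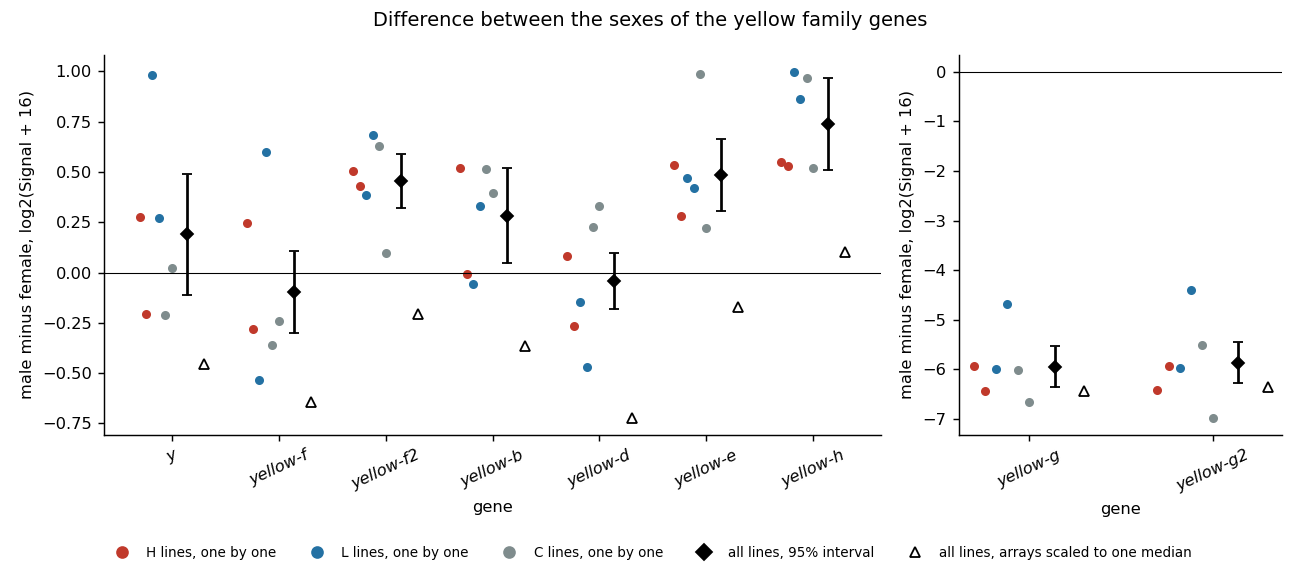
Males minus females in log2(Signal + 16) for 7 members (left) and the eggshell pair (right, another axis): circles are single lines coloured by selection group, diamonds the mean of 6 lines with its 95% interval, and open triangles the same mean with arrays scaled to a common median. The triangles of the 7 members on the left all lie below their diamonds, and that of yellow-f2 is at -0.20, against 0.45 for its diamond.

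By line, 2 of 9 members (y and yellow-f2) differed at an adjusted p under 0.001, against 6.58% of all genes. By selection, none of the 9 was called: 0 in H minus L (background 7.63%), 0 in H minus C (8.92%) and 0 in L minus C (5.55%). At an unadjusted p under 0.05 in limma, 2 members (y and yellow-e) passed in H minus L, the same 2 in H minus C and 0 in L minus C. The share of all genes at that unadjusted level is not given here, but it is at least the share called after adjustment. This holds for every unadjusted count over arrays in this report. The medians of the 9 differences were 0.03, 0.09 and 0.01, against -0.02, -0.03 and -0.01 over all genes. These contrasts share the arrays of each group. Within a sex, y in H minus L of males was the 1 call. The shares of genes called were 4.7% for H minus L in females, 5.61% and 3.48% for H minus C in males and females, and 2.47% and 2.95% for L minus C in males and females. No contrast differed between the sexes for any member, with backgrounds of 0.164% for H minus L, 0.492% for H minus C and 0.123% for L minus C. The members with an unadjusted p under 0.05 there numbered 0, 1 and 2.

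With the line as the replicate, 0% of genes passed in each of the 3 contrasts, and the share with an unadjusted p under 0.05 was 5.04%, 4.97% and 4.38%. Among the members, yellow-g2 alone was within that share, in H minus L (0.44, adjusted p = 0.8278) and in L minus C (-0.31, adjusted p = 0.9985). For y, H2 minus H1 (0.99) and C2 minus C1 (1.40) each exceeded the largest difference between groups (-0.88 for H minus C), and for yellow-f2 the differences within the 3 groups (1.02, 0.53 and -0.39) all exceeded those between groups.

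**Figure D4:**
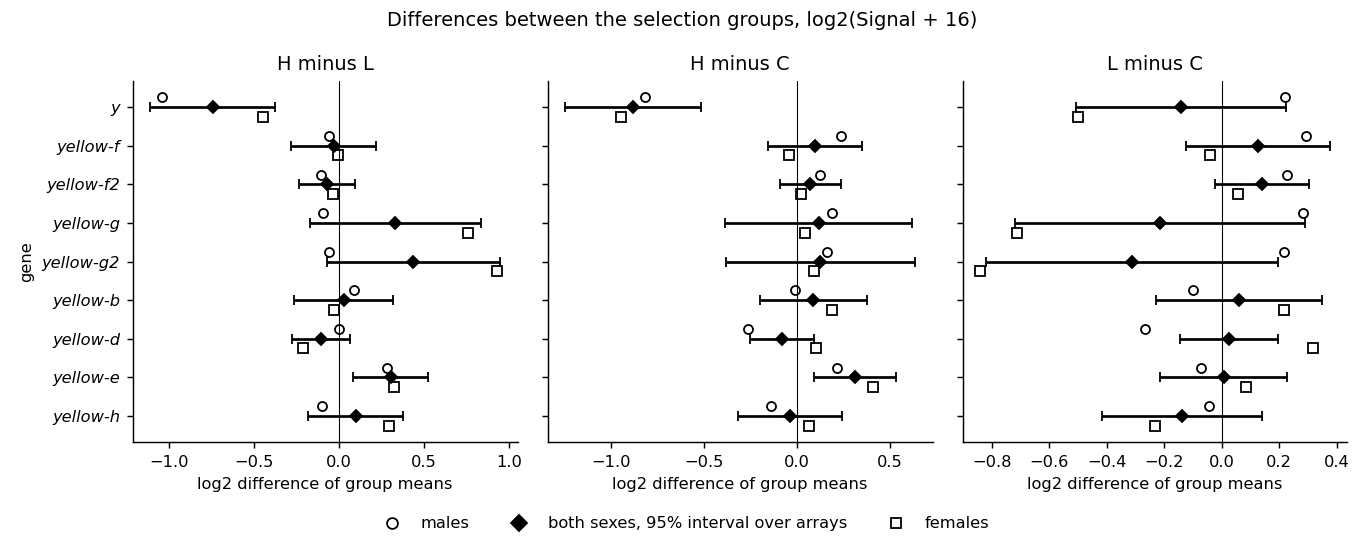
H minus L, H minus C and L minus C in log2(Signal + 16) for the 9 members, over both sexes (diamonds, with the 95% interval over arrays), in males (circles) and in females (squares). The intervals of y for H minus L (-0.74) and H minus C (-0.88) lie below 0, and those of yellow-e (0.30 and 0.31) above 0, and none of them met both the rule on line signs and the adjusted p.

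The enzymes that make cuticle pigment alongside the yellow proteins were examined as a list, which also took in Catsup, a regulator of catecholamine synthesis. Of 14 listed, 10 were tested: 5 were higher in males and 1 higher in females, against 31.7% and 45.9% of all genes. Pu, which starts pteridine and cofactor synthesis, was at 0.56, t, which frees dopamine from its conjugate, at 0.50, Ddc, the dopa decarboxylase, at 0.48, e, the enzyme that forms that conjugate, at 0.42, and speck, an N-acetyltransferase of dopamine, at 0.25. The carboxypeptidase gene svr was at -0.79. As for the yellow genes, these male-higher calls ended with arrays scaled to a common median, where Pu was at -0.13 and speck at -0.44. Under that scaling 0 of the 10 were called higher in males and 6 higher in females, against 19% and 66.1% of all genes. Relative to the median gene, Pu stood at 0.74 and 0.71, and e at 0.60 and 0.60, in the 2 scalings.

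By line, 3 of the 10 genes tested from that list differed, against 6.58% of all genes. They were stw, a laccase needed for cuticle tanning (adjusted p = 6.466e-05), Catsup, a negative regulator of catecholamine synthesis (0.0006549), and PPO2, a prophenoloxidase (0.00092). In H minus L, svr was called higher in H (0.42, SE 0.105, adjusted p = 0.01954). There 7.63% of all genes were called, and 0% with the line as the replicate. For stw, H minus L was -0.73 (SE 0.131, adjusted p = 0.002058), but its lines were not all of the same sign, as for y. The list of pigmentation regulators, which also took in fru, a gene of the sex determination hierarchy, held 7 genes, and 4 were tested. Among them en (1.29) and fru (0.44) were higher in males, though with a common median fru was at -0.20, and dsx, the switch gene of somatic sex, was higher in females (-2.95). None of the 4 passed the threshold for line (lowest adjusted p 0.01296) or for a selection contrast in limma, and 2, 3 and 1 had an unadjusted p under 0.05 in H minus L, H minus C and L minus C.

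A further 4 yellow genes outside the 10, yellow-d2, yellow-e2, yellow-e3 and yellow-k, were below the filter and were not tested. The lowest, median and highest Signals of yellow-k were 1.6, 17.7 and 39.1 in males and 49.9, 78.1 and 116.4 in females, without overlap. For yellow-d2 they were 5.5, 18.1 and 39.7 in males and 5.7, 24.5 and 37.6 in females, and the sexes overlapped likewise in yellow-e2 and yellow-e3.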

How the data were processed

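The authors hybridised RNA of 24 samples to Affymetrix Drosophila arrays, computed Signal with MAS5 (per the labels) and scaled each array, and the intensity values were deposited on a linear scale. The mean with both ends trimmed was near the same value on every array. Detection calls were not used here, and the genome build behind the probe annotation is not given in the sources used here. The number of arrays limits the precision.

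The scale of analysis was log2(Signal + 16). Models were fitted with limma 3.58.1 (R 4.3.3) to 11666 probe sets, kept by rank of their 12th-highest Signal, with Benjamini-Hochberg adjustment of p-values. Thresholds were 0.001 for sex, line and line by sex and 0.05 for contrasts of selection groups, which also needed all 4 line differences of the same sign. The probe set with the highest mean stood for its gene. Of the probe sets, 13647 name 1 gene, 402 several and 4720 none. Likeness was Pearson's r, and the 3 most like genes of each member were taken. Scripts were tested on simulated data. The members and gene lists were chosen with earlier results of these data known. One male label carries 2 line numbers and was read as H2 replicate 1. Alternatives were pseudocounts of 1 and 64, no filter, a filter at a Signal of 200, quantile normalization within each sex, a common median, an ordinary model on Signal, a replicate block, line as a random block, a rule of 2 steps (line or line by sex first, then an unadjusted contrast), and the omission of single arrays and of single lines. A sign rule within line numbers and a line-number block on line means were added after seeing the data.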

Additional observations from a re-analysis of the deposited data

Results flagged for a closer look

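Values of the 9 members were examined in 54 groups of 4 arrays (a selection group and sex), and in 6 of them 1 array stood far from the other 3 for the range of its group. For 4 independent values from a single normal distribution, chance gives such an array in about 1 of 20 groups. The groups here hold arrays of 2 lines each, so that rate need not apply to them. In H1 female replicate 2, yellow-f was at 76.2, against 60.7 to 62.5 on the other H female arrays. In H1 male replicate 2, yellow-g was at 35.9, against 4.5 to 6.7, and in C1 male replicate 2, yellow-g2 was at 22.7, against 3 to 5. First quartiles of the male arrays were 17.7 to 26.7. The other male values of both groups were below that range, 22.7 was within it and 35.9 was above it. In H2 female replicate 2, yellow-b was at 391, against 195 to 216.4. For yellow-h, L1 male replicate 2 was at 185.1, against 249.3 to 262.7, and L2 female replicate 2 was at 169.9, against 96.3 to 105. No cause of these values was tested.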

How the results depend on the processing

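The 5 calls by sex and the 2 by line held in each fit that left out 1 array, and no member was then called in H minus L or L minus C (0 throughout). In H minus C the count was 0 to 1, with yellow-e called without H2 male replicate 1 or without C1 female replicate 2. With 1 line left out, only 2 line differences need to share a sign: H minus L had 2 calls without H1 or without H2 and 1 without L1, H minus C 2 without H1 or without H2 and 1 without C1, and L minus C 1 without L1 and 2 without C1. These calls were of y, yellow-e and yellow-f2. The shares of all genes called were then 6.55% without H1, 7.73% without H2 and 7.1% without L1 in H minus L, 6.79% without H1, 8.2% without H2 and 13.7% without C1 in H minus C, and 6.1% without L1 and 9.59% without C1 in L minus C. With one sign within both line numbers, added after seeing the data, y was called in H minus L and in H minus C (1 each). With the filter at 200, yellow-h was not tested (12th-highest Signal 188.4), which left 4 calls by sex (81.6% of genes). The rule of 2 steps called y in H minus L and in H minus C (1 each). The ordinary model on Signal left 1 call by line, since y had an adjusted p of 0.00335. Scaling to a common median called 1 member, yellow-e, in H minus L (0.46, adjusted p = 0.02034), with 11.6% of genes. It shifted H minus L of all genes by 0.16. A replicate block called yellow-e in H minus C (adjusted p = 0.02265, a count of 1 against 0), with 10.4% of genes. It changed no other call of a member. Deviations of same-numbered arrays correlated at -0.242 to 0.213 over 66 pairs of groups (median 0.05, 19 over 0.1). Line as a random block called no member in any contrast.

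Several differences changed sign, and 2 of them, both by sex, had been called. With a common median, males minus females was -0.46 for y, -0.37 for yellow-b, -0.20 for yellow-f2 (called male-higher otherwise) and -0.17 for yellow-e (likewise), and H minus L was 0.12 for yellow-f, 0.089 for yellow-f2 and 0.057 for yellow-d, whose H minus C was 0.011. Quantile normalization gave 0.11 for yellow-f in H minus L. The model on Signal gave -32.1 for yellow-g in H minus C and -3.96 for yellow-e in L minus C, in units of Signal. Without H1, yellow-f H minus C was -0.091 and yellow-f2 H minus L 0.44. Without H2, yellow-f H minus L was 0.16 and yellow-f2 H minus C -0.44. Without L1, L minus C was 0.26 for y, -0.12 for yellow-f, -0.10 for yellow-e and 0.0084 for yellow-h, and H minus L was 0.22 for yellow-f and -0.049 for yellow-h. Without L2, yellow-f2 was 0.19 in H minus L and -0.12 in L minus C, and yellow-d was 0.044 in males minus females. Without C1, H minus C was -0.15 for yellow-g and 0.074 for yellow-d. Without C2, L minus C was 0.56 for y, -0.056 for yellow-f2, 0.049 for yellow-g, -0.12 for yellow-b and -0.13 for yellow-d, and H minus C was -0.13 for yellow-f2 and -0.094 for yellow-b. The causes were not tested.

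Over all genes, counts called moved too. In H minus L, 744 genes were called, against 1132 with a common median, 480 by the rule of 2 steps, 59 with line as a random block and 1282 without line L2. In H minus C, 870 genes were called, against 570 with a common median, 1439 in the model on Signal, 453 by the rule of 2 steps, 44 with the random block and 1334 without line C1. In L minus C, 541 genes were called, against 839 in the model on Signal, 25 with the random block, 1097 without line L2 and 935 without line C1. By line, 642 genes were called, against 704 with a replicate block, 418 without a filter and 421 with a common median. By line and sex, 2 genes were called, against 27 in the model on Signal, 8 with a pseudocount of 64, 6 with a common median, 17 when L1 female replicate 2 was omitted, 54 when C1 female replicate 2 was, and 1 to 4 in the other alternatives that kept all lines. Male Signals of the eggshell pair and all Signals of yellow-f were low, which limits what can be seen in them.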
